A study of Mus musculus with 7 samples.

Results

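The 9 integrin chains described here are Itga1, Itga2, Itga4, Itga5, Itga6, Itgal, Itgb1, Itgb2 and Itgb3. They were taken by gene symbol from the 39179 genes of the authors' deposited table, and all 9 symbols matched 1 gene each. Regulatory T cells of 3-week-old C57BL/6 mice, sorted as CD4+ TCRb+ CD25hi Foxp3+ from their lymph nodes, were profiled by messenger RNA sequencing in 7 libraries. The double-knockout (dKO) group of 3 numbered libraries is labelled Id2fl/flId3fl/flFoxp3cre, with both copies of Id2 and Id3 floxed. The control group of 2 numbered libraries is labelled Id2fl/+Id3fl/+Foxp3cre. Control mice therefore also carried the Foxp3-driven Cre recombinase and 1 floxed copy of each gene. A further pair without a number has 1 library labelled dKO and 1 library labelled control by title and source name. The genotype tags of that pair are the reverse of its titles, so its libraries are named only as labelled. The sources used here do not say whether a library came from 1 animal or from a pool.

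Integrins are adhesion receptors made of 1 alpha and 1 beta chain, and a chain reaches the cell surface only with a partner. On T cells the alpha L chain (Itgal) pairs with beta 2 (Itgb2) to form LFA-1, which binds ICAM proteins. The alpha 4 chain (Itga4) pairs with beta 1 (Itgb1) to form VLA-4, which binds VCAM-1 and fibronectin, or with beta 7 (Itgb7) to form the gut homing receptor for MAdCAM-1. The alpha 5 chain (Itga5) with beta 1 is the classical fibronectin receptor, and alpha 6 (Itga6) with beta 1 binds laminin. The alpha 1 (Itga1) and alpha 2 (Itga2) chains with beta 1 bind collagens, and beta 3 (Itgb3) pairs with alpha V (Itgav) or, in platelets, with alpha IIb (Itga2b). Id2 and Id3 encode proteins that hold E protein transcription factors off DNA, and E proteins bind the E-box motif, written CANNTG.

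The stretches of 250 bases before the annotated transcription start are shown for Itga4 and Itga5, which fell in dKO, and for Itgb1, their shared partner, which did not pass the test. They are RefSeq sequences of build GRCm38.p6, read 5′ to 3′ on the strand of the gene, with each match to CANNTG in capitals. Itga4 lies on the plus strand at chr2:79255176-79255425, Itga5 on the minus strand at chr15:103366792-103367041 and Itgb1 on the plus strand at chr8:128685404-128685653.
Itga4: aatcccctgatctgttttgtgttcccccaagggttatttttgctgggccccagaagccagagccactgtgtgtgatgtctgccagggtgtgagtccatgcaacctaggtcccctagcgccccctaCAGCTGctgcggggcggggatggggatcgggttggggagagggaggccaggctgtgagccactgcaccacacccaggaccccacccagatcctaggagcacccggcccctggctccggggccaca
Itga5: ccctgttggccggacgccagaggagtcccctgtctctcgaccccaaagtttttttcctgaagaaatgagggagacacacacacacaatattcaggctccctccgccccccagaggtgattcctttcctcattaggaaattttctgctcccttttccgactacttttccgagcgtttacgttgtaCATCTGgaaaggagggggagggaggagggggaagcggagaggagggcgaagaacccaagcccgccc
Itgb1: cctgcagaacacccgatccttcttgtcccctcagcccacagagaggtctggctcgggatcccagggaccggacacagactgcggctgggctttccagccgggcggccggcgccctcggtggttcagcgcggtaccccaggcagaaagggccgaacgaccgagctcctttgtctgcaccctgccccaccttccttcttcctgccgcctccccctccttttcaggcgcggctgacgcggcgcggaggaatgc
The Itga4 window held 1 E-box, CAGCTG, 125 to 120 bases before the start (positions -125 to -120). The Itga5 window held 1, CATCTG, at positions -66 to -61, and the Itgb1 window held 0. CANNTG, which reads alike on both strands, occurred in 66.2% of all 32851 windows of that length, and its form CAGCTG in 13.0%. Windows were also given for Itga1, which held 1 CAGCTG and did not pass the test, and for Itga2, which held 0. No window was available for Itgb3, which also fell, or for Itga6, Itgal and Itgb2. A match is a run of letters and not a measured binding site.

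Values of the replicated comparison are the authors' deposited group means of read counts after division by a size factor per library, called scaled counts. The deposited table gives no SD, so no error can be set beside a mean, and its p-values come from DESeq, adjusted over 31641 tested genes. A gene with an adjusted p under 0.05 is said to have risen or fallen. Nothing in the labels says that libraries came from separate animals, so the p-values reflect spread among these libraries only. The control libraries held unlike numbers of Y-linked reads, given below, so they were not preparations of the same cells. Among the dKO libraries the spread may be technical. Id2, a targeted gene, had 61.1 scaled counts in dKO and 783 in control, and Id3 had 891 in dKO and 1376 in control, in the authors' deposited table. Of these 2, only Id2 passed (adjusted p 1.48e-08 for Id2 and 0.209 for Id3, DESeq, the authors' deposited table). In the pair, Id2 had 9.69 FPKM (fragments per kilobase of transcript, scaled to library size) in the library labelled dKO and 18.6 FPKM in the library labelled control. Id3 had 221 FPKM in the library labelled dKO and 160 FPKM in the library labelled control.

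Size factors worked back from low means were 0.860 to 0.929 in dKO and 1.09 and 1.29 in control, so control libraries were the deeper ones. Kdm5d and Uty, which lie on the Y chromosome, had 601 reads together in the deeper control library and 15 in the other. Their dKO means were 2.56 and 17.8 scaled counts, against 112 and 128 in control, in the authors' deposited table. All 4 cell division genes examined (Mki67, Top2a, Ccnb1 and Cdk1) rose in dKO in the authors' deposited table, with summed means of 57939 in dKO and 26921 in control. The part of the Y-linked difference and of cell division in the results was not tested, except where a value without the deeper control library is given. In sorted but bulk RNA, fewer cells of a type and less RNA per cell cannot be told apart. Of the transcripts that define the sort, Foxp3 had 10942 scaled counts in dKO and 13481 in control in the authors' deposited table. Il2ra had 32126 in dKO and 32376 in control in that deposited table. Cd4, Cd3e, Trac and Trbc1 had higher means in dKO, and Ikzf2 and Cd5 had lower ones. Of the 9 regulatory T cell markers, 1 rose, 0 fell and 8 did not pass. The 1 that rose was Ctla4, with 26706 in dKO and 13258 in control in the authors' deposited table. Over all tested genes, 6.56% were called.

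By the authors' deposited table, Itga4, Itga5 and Itgb3 fell in dKO among the 9 integrin chains, 0 rose and 6 missed the threshold. Over all tested genes, 6.56% were called in that table, 3.18% lower and 3.38% higher in dKO. The count at an unadjusted p under 0.05 was the same 3. The median log2 fold change of the 9 chains was -0.17, against -0.02 over the 26690 tested genes with a finite ratio. Of the 9, 8 had a mean of 10 or more scaled counts, a level at which 13.3% of 15446 genes were called.

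**Figure D1:**
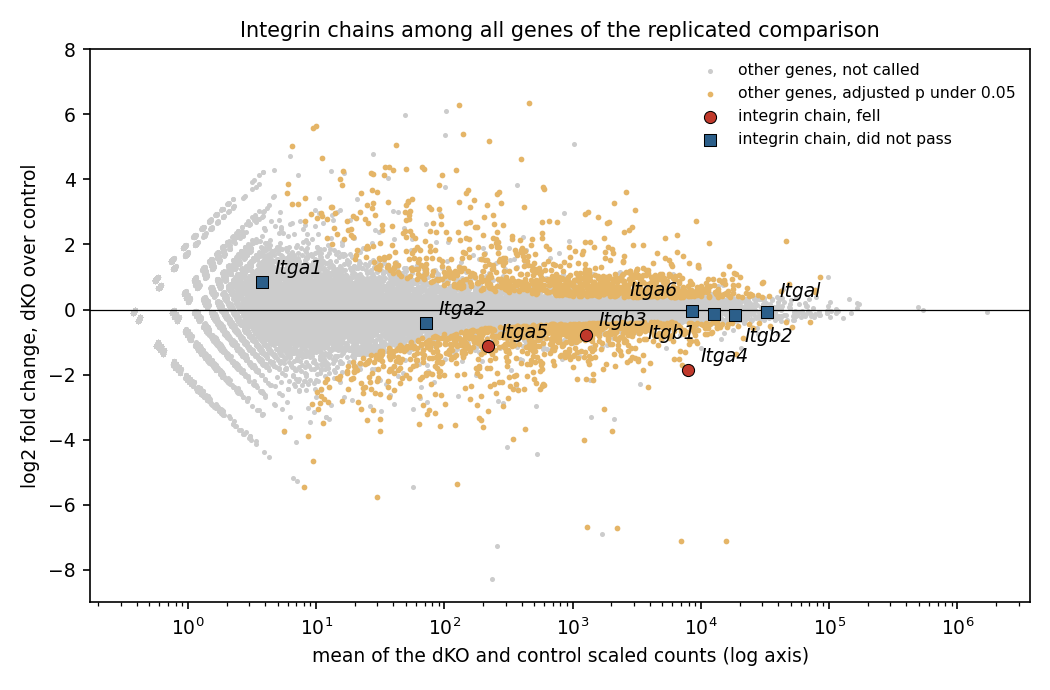
Log2 fold change, dKO over control (y axis), against the mean of both groups in scaled counts (x axis, log scale) for all genes with a finite ratio and a p in the replicated comparison. Red circles mark the 3 chains that fell, Itga4, Itga5 and Itgb3, and blue squares the 6 that did not pass, of which Itgal, Itgb2, Itgb1 and Itga6 lie close to 0 at high means.

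The alpha 4 chain showed the largest change of the 9 chains in the replicated comparison. Itga4 (ENSMUSG00000027009, chromosome 2, 79255426 to 79333123, GRCm38, plus strand) had 3414 scaled counts in dKO and 12428 in control in the authors' deposited table. That is 27.5% of the control mean, log2 fold change -1.86 and adjusted p 6.57e-19 (DESeq, the authors' deposited table). In the pair, Itga4 had 15.6 FPKM in the library labelled dKO and 35.4 FPKM in the library labelled control. The first is 43.99% of the second. Both comparisons therefore gave a lower Itga4 value under the dKO label, and the pair, with 1 library per label, has no test. The 3′ end of Itga4 overlaps Cerkl, a ceramide kinase-like gene on the opposite strand, over 2581 bases. Cerkl had 81.7 scaled counts in dKO and 140 in control in the authors' deposited table, far below Itga4 in both groups. Of the 50-base stretches in Itga4 transcripts, 99.9% occurred in no other gene on the same strand, and 7.32% occurred in Cerkl on the opposite strand. The library protocol marks the strand, but the sources used here do not say whether counting used it.

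The alpha 5 chain fell too, at a lower level than alpha 4. Itga5 (ENSMUSG00000000555, chromosome 15, 103344289 to 103366763, minus strand) had 138 scaled counts in dKO and 300.5 in control in the authors' deposited table, log2 fold change -1.13 and adjusted p 9.93e-07 (DESeq). Low means in this table can be split into whole reads per library, and the control mean corresponded to 342 reads in the deeper control library and 366 in the other. These are 266 and 335 scaled counts, so each control library alone lay above the dKO mean. Without the deeper control library, which held most Y-linked reads, the log2 ratio was -1.28, and without the other one it was -0.95. Reads per library could not be recovered for the dKO mean of Itga5. In the pair, Itga5 had 1.16 FPKM in the library labelled dKO and 3.40 FPKM in the library labelled control. The table marks Itga5 as overlapping 1 gene, the microRNA mir-6963, which is listed at 0 in both groups.

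The beta 3 chain also fell. Itgb3 (ENSMUSG00000020689, chromosome 11, 104608000 to 104670476, plus strand) had 929 scaled counts in dKO and 1590 in control in the authors' deposited table, log2 fold change -0.78 and adjusted p 0.0025 (DESeq). In the pair it had 3.83 FPKM in the library labelled dKO and 15.4 FPKM in the library labelled control, and its log2 ratio of -1.76, with a pseudocount of 1 FPKM, was the lowest of the 9. With the stricter Holm adjustment Itgb3 was no longer called, while Itga4 and Itga5 were. Itgb3 overlaps no other gene in the table. Its known platelet partner alpha IIb (Itga2b) had 53.9 scaled counts in dKO and 57.4 in control, and the platelet genes Pf4 and Ppbp had 0 and 0.732 in dKO and 0.389 and 0 in control, in the authors' deposited table. The 6 platelet and megakaryocyte markers summed to 134 scaled counts in dKO and 152 in control, and 0 of them were called. Most of that sum was Itga2b itself and Gp1ba, at 74.4 in dKO and 91.9 in control in the authors' deposited table. Gp9, like Ppbp, had a higher mean in dKO, at 4.49 against 0.777 in control, and Gp6 had a lower one. The part of platelets in the Itgb3 values was not tested. The other partner of Itgb3, alpha V (Itgav), had 2694 scaled counts in dKO and 1970 in control and did not pass (log2 0.45, adjusted p 0.0942, DESeq, the authors' deposited table). Per kilobase of exon, the ratio of Itgav to Itgb3 was 1.59 in dKO and 0.680 in control. In FPKM it was 2.86 in the library labelled dKO and 0.535 in the library labelled control.

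Both chains of LFA-1 were the most abundant of the 9 per length, and neither passed the test. Itgb2 (ENSMUSG00000000290, chromosome 10, 77530252 to 77565708) had 17206 scaled counts in dKO and 19353 in control in the authors' deposited table, with a log2 fold change of -0.17 and an adjusted p of 0.815 (DESeq). Itgal (ENSMUSG00000030830, chromosome 7, 127296260 to 127335137) had 31922 in dKO and 33378 in control, with a log2 fold change of -0.06 and an adjusted p of 1 in the same deposited table (DESeq). Such a p does not show that the groups were alike. In the pair, Itgb2 had 197 FPKM in the library labelled dKO and 267 FPKM in the library labelled control. Itgal had 187 FPKM in the library labelled dKO and 234 FPKM in the library labelled control. Per kilobase of exon, Itgb2 stood at 1.13 times Itgal in dKO and 1.21 times in control. The myeloid genes Cd14 and Lyz2, markers of other cells that carry beta 2, had 2.25 and 21.2 scaled counts in dKO and 2.54 and 25.3 in control, in the authors' deposited table. The 7 myeloid markers summed to 147 scaled counts in dKO and 129 in control, with 0 called. Most of that sum was Itgam, itself an integrin chain, at 95.03 in dKO and 73.67 in control, in the authors' deposited table. Adgre1 and Fcgr1 also had higher means in dKO, Csf1r was nearly equal, and C1qa, like Cd14 and Lyz2, had a lower mean. The part of myeloid cells in the Itgb2 values was not tested.

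The shared beta 1 chain and the laminin-binding alpha 6 chain did not pass either. Itgb1 (ENSMUSG00000025809, chromosome 8, 128685654 to 128733200) had 12102 scaled counts in dKO and 13238 in control, log2 fold change -0.13 and adjusted p 1 in the authors' deposited table (DESeq). Itga6 (ENSMUSG00000027111, chromosome 2, 71745616 to 71858416) had 8326 in dKO and 8562 in control, log2 fold change -0.04 and adjusted p 1 in that deposited table (DESeq). In the pair both were higher under the dKO label. Itgb1 had 115 FPKM in the library labelled dKO and 86.7 FPKM in the library labelled control, and Itga6 had 43.98 FPKM in the library labelled dKO and 37.8 FPKM in the library labelled control. The 4 noncoding genes that overlap Itga6 had at most 1.86 scaled counts in dKO and 0.916 in control in the authors' deposited table.

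The collagen-binding chains were scarce. Itga2 (ENSMUSG00000015533, chromosome 13, 114835916 to 114932041) had 61.0 scaled counts in dKO and 81.6 in control, at log2 fold change -0.42 and adjusted p 0.800 by the authors' deposited table (DESeq). The control mean corresponded to 85 reads in the deeper control library and 106 in the other, or 66.1 and 97.0 scaled counts, both above the dKO mean. Itga1 (ENSMUSG00000042284, chromosome 13, 114958079 to 115101964) had 4.82 in dKO and 2.68 in control (adjusted p 1, DESeq, the authors' deposited table). These were 4, 5 and 4 reads in the dKO libraries and 1 and 5 in the control libraries, so the groups overlapped. Itga1 encloses Pelo, a gene for ribosome rescue on the same strand with 737 scaled counts in dKO and 660 in control in the authors' deposited table. The natural killer marker Ncr1, of a cell type known to carry alpha 1 and alpha 2, had 0.754 scaled counts in dKO and 0.777 in control in that deposited table. The 5 natural killer markers summed to 189 scaled counts in dKO and 162 in control, with 0 called. Most of that sum was Eomes, at 119 in dKO and 90.7 in control, and Klrb1c, at 64.7 in dKO and 69.7 in control, in the authors' deposited table. Their part in the Itga1 and Itga2 values was not tested. In the pair, Itga2 had 0.325 FPKM in the library labelled dKO and 0.532 FPKM in the library labelled control, and Itga1 had 0.0531 FPKM in the library labelled dKO and 0.0274 FPKM in the library labelled control.

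Ordered by level per length, the 9 chains kept one order in dKO, in control and in each library of the pair. It was Itgb2, Itgal, Itgb1, Itga6, Itga4, Itgb3, Itga5, Itga2 and Itga1, from high to low. Per kilobase of exon the scaled counts ran from 5638 for Itgb2 to 0.805 for Itga1 in dKO, and from 6341 to 0.447 in control. In the library labelled dKO the FPKM ran from 197 to 0.0531, and in the library labelled control from 267 to 0.0274. Gaps between neighbours cannot be set against a spread, since the means carry none. The smallest gap in control was that of Itga6 over Itga4, at 1.07 times per kilobase, and it was 3.78 times in dKO. In FPKM, Itga6 stood at 2.83 times Itga4 in the library labelled dKO and 1.07 times in the library labelled control.

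**Figure D2:**
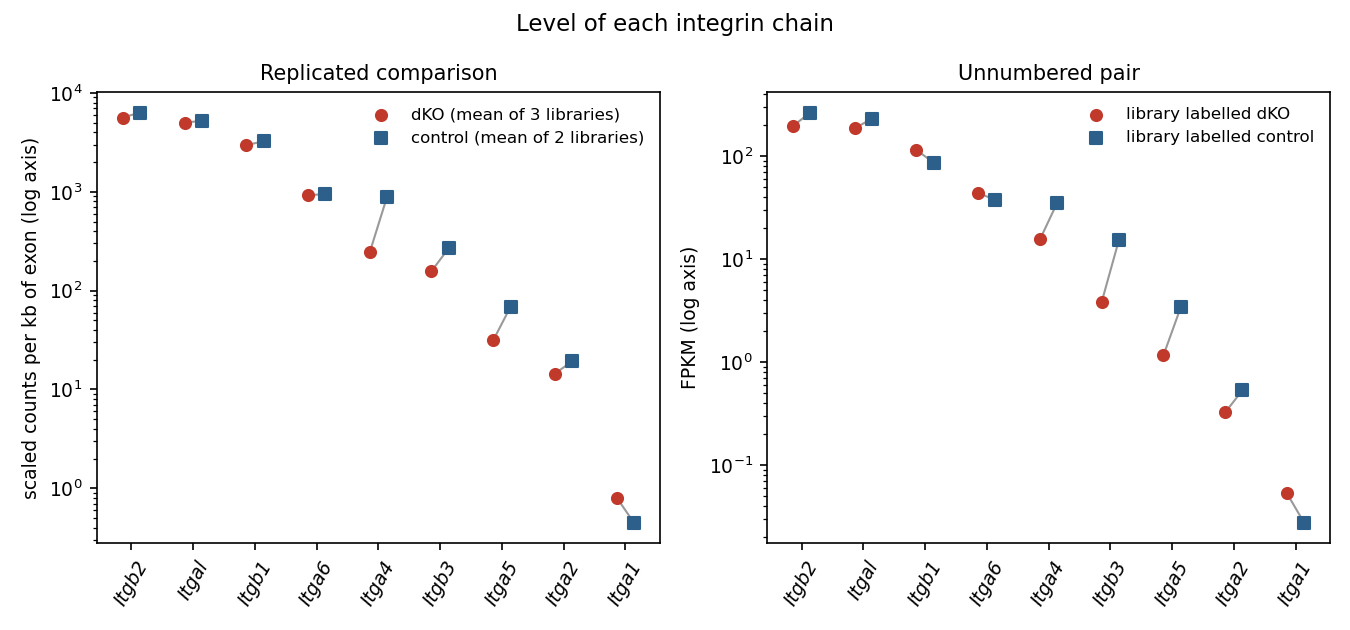
Level of the 9 chains on log axes, as scaled counts per kilobase of exon in the replicated comparison (left) and FPKM in the unnumbered pair (right), with dKO or the library labelled dKO as red circles and control or the library labelled control as blue squares. The points are group means on the left and single libraries on the right, without error bars since the files give none. Itga4, Itgb3 and Itga5 lie lower in dKO on the left, from 244 against 889 per kilobase for Itga4 to 31.4 against 68.6 for Itga5, and lower in the library labelled dKO on the right.

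Among transcripts of the 12 alpha chains that can pair with beta 1, the make-up differed between groups. By scaled counts per kilobase of exon, Itga4 made up 14.3% of their sum in dKO and 39.1% in control. Itga6 made up 54.0% in dKO and 41.8% in control. Itgav held 14.7% in dKO and 8.07% in control, and Itga7 held 9.16% in dKO and 4.21% in control. Itga9 held 3.09% in dKO and 0.789% in control, and Itga5 held 1.84% in dKO and 3.02% in control. The sum itself was 1709 per kilobase in dKO and 2271 in control. In the pair, by FPKM over the 11 of these chains with a value, Itga4 made up 19.2% in the library labelled dKO and 39.3% in the library labelled control. Itga6 made up 54.2% in the library labelled dKO and 42.0% in the library labelled control. These shares are of transcripts, not of receptors, and alpha 4, alpha 6 and alpha V also pair with other beta chains. They have no test, and a share moves when any other chain moves.

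**Figure D3:**
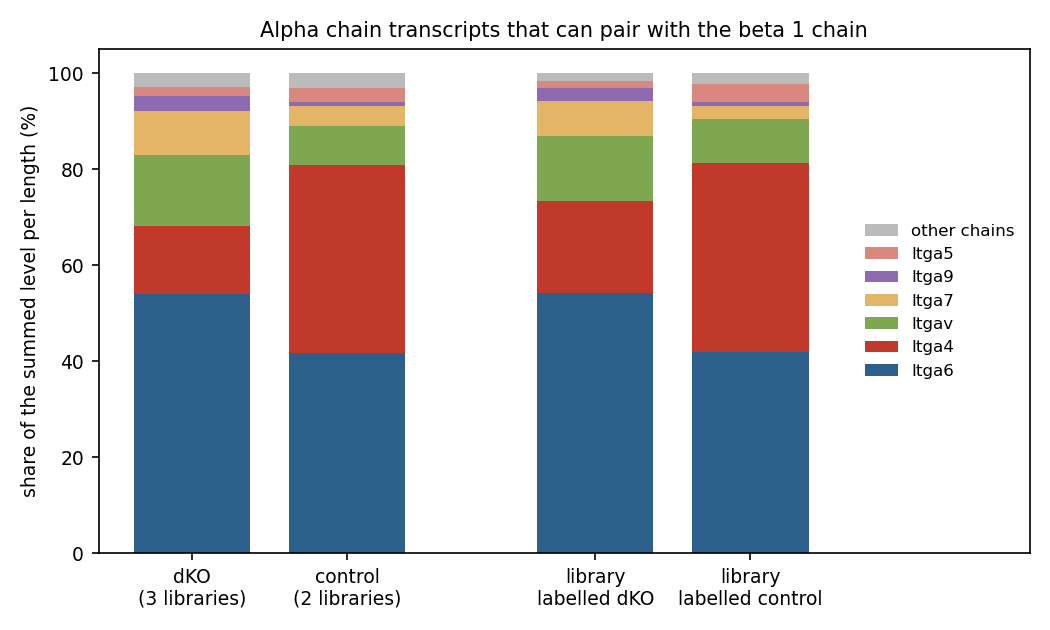
Share of each alpha chain, in percent, in the summed level per length of the 12 alpha chains that can pair with beta 1 (scaled counts per kilobase of exon for dKO and control, FPKM for the pair). Each bar stacks to 100%, and the red Itga4 segment is 14.3% in dKO against 39.1% in control, and 19.2% in the library labelled dKO against 39.3% in the library labelled control.

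Of the other 17 integrin chains, 2 rose, 1 fell and 14 missed the threshold by the authors' deposited table, and their median log2 fold change was -0.09. Among all tested genes 6.56% were called. Of the 17 chains, 12 had a mean of 10 or more scaled counts, a level at which 13.3% of genes were called. Itga9, whose product binds tenascin and VCAM-1 with beta 1, had 406 scaled counts in dKO and 138 in control in the authors' deposited table, log2 fold change 1.56 and adjusted p 1.13e-09 (DESeq). Its control mean split into 138 and 137 scaled counts in the 2 control libraries, both far below the dKO mean. The pseudogene Gm10157, which overlaps Itga9 on the opposite strand, had 26.6 scaled counts in dKO and 44.6 in control in the authors' deposited table. Itga7, a laminin-binding chain, had 628 scaled counts in dKO and 384 in control in the authors' deposited table (DESeq, log2 fold change 0.71, adjusted p 0.0003), with 371 and 396 in the 2 control libraries. In the pair, Itga9 had 2.23 FPKM in the library labelled dKO and 0.827 FPKM in the library labelled control, and Itga7 had 5.96 FPKM in the library labelled dKO and 2.45 FPKM in the library labelled control. The one that fell was Itgae, the CD103 chain, with 1245 scaled counts in dKO and 6479 in control in the authors' deposited table. Itgb7, the beta chain that both alpha 4 and CD103 can use, had 18908 in dKO and 24395 in control and did not pass (log2 -0.37, adjusted p 0.0826, DESeq, the authors' deposited table). In the pair it had 268 FPKM in the library labelled dKO and 491 FPKM in the library labelled control. Per kilobase of exon, Itgb7 stood at 28.2 times Itga4 in dKO, with 6893 against 244 scaled counts. In control the same 2 levels were 8894 and 889.

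**Figure D4:**
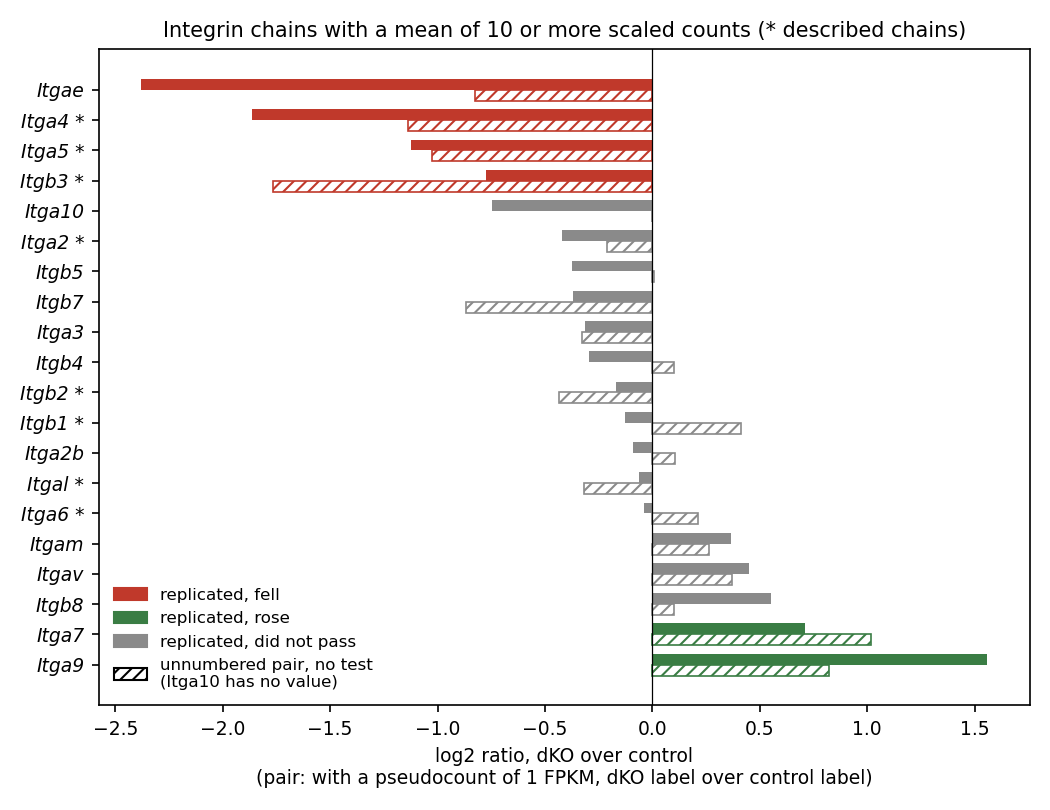
Log2 ratios (x axis) of the 20 integrin chains with a mean of 10 or more scaled counts, with asterisks on those of the 9 described chains that reach it. Solid bars are dKO over control in the replicated comparison, red where the chain fell, green where it rose and grey where it did not pass, and hatched bars are the library labelled dKO over the library labelled control. Itgae, Itga4, Itga5 and Itgb3 are lower and Itga7 and Itga9 higher in both comparisons.

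Genes that regulate integrins, bind their tails or join them in the membrane were counted next. Of 38 entries for 37 such genes, 1 rose, 1 fell and 36 missed the threshold by the authors' deposited table, with a median log2 fold change of -0.10. That count stands beside the 6.56% called among all tested genes and is near it. Of the 38 entries, 36 had a mean of 10 or more scaled counts, a level at which 13.3% of genes were called. Rapgef1, an exchange factor for the small GTPase Rap1, which switches integrins on, had 14717 scaled counts in dKO and 8985 in control in the authors' deposited table (DESeq, log2 fold change 0.71, adjusted p 3.72e-06). The entry that fell was the smaller of 2 for Cd47, with 7.42 scaled counts in dKO and 27.3 in control in the authors' deposited table. The larger Cd47 entry had 11485 in dKO and 12139 in control and missed the threshold in that deposited table, so the call holds for the smaller entry only. Rap1a itself had 9121 in dKO and 6936 in control, with adjusted p 0.0504 by the authors' deposited table (DESeq). Talin 1 (Tln1) and kindlin 3 (Fermt3), which bind beta chain tails, had log2 fold changes of 0.01 and 0.21, and both missed the threshold by the authors' deposited table.

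Of 30 genes for integrin ligands, 1 rose, 1 fell and 28 missed the threshold by the authors' deposited table, with a median log2 fold change of 0.27. Set beside the 6.56% called among all tested genes, that count is near it. Of the 30 genes, 17 had a mean of 10 or more scaled counts, a level at which 13.3% of genes were called. Cdh1 encodes the CD103 ligand E-cadherin and had 754 scaled counts in dKO and 30.7 in control in the authors' deposited table. Its log2 fold change was 4.62 and its adjusted p 0.0259 (DESeq, the authors' deposited table). The collagen gene Col1a2, which fell, had 25.6 scaled counts in dKO and 108 in control in the authors' deposited table. The LFA-1 ligand genes Icam1 and Icam2, which T cells carry themselves, had 1847 and 1899 scaled counts in dKO and 1790 and 1895 in control in that deposited table. Vcam1 and Fn1, for ligands of VLA-4, had 16.2 and 119 scaled counts in dKO and 35.6 and 58.9 in control and missed the threshold by the authors' deposited table. Col1a2 is also 1 of the 6 fibroblast and stroma markers, which summed to 158 scaled counts in dKO and 216 in control, with 0 risen and 1 fallen. Of the others, Col1a1 had 125 scaled counts in dKO and 94.9 in control in the authors' deposited table. The remaining 4 (Pdgfra, Pdgfrb, Pdpn and Dcn) ran from 0.732 to 3.42 in dKO and from 0.846 to 6.06 in control in that deposited table. The part of stromal cells in the ligand values was not tested.

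Of 21 other homing and adhesion receptor genes, 4 rose, 8 fell and 9 missed the threshold by the authors' deposited table, with a median log2 fold change of -0.30. Among all tested genes 6.56% were called. All 21 genes of the list had a mean of 10 or more scaled counts, a level at which 13.3% of genes were called. That list was chosen with results of these libraries known and is not independent evidence of a direction. The 4 with the smallest adjusted p were Gpr15, Fut4, S1pr1 and Cxcr3. Fut4, a fucosyltransferase that helps build selectin ligands, had 176 scaled counts in dKO and 39.3 in control, log2 fold change 2.17 and adjusted p 3.02e-14 in the authors' deposited table (DESeq). Gpr15, S1pr1 and Cxcr3 had log2 fold changes of -3.12, -1.04 and 1.53 in the authors' deposited table.

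In the pair, 3 of the 9 chains, again Itga4, Itga5 and Itgb3, were lower by 1 or more on the log2 scale in the library labelled dKO, and 0 were higher by as much. Over 21607 genes, 1.62% were lower and 1.56% higher by that much with a pseudocount of 1 FPKM. Among the 8681 genes with 5 FPKM or more in at least 1 library, 3.16% were lower by that much. The log2 ratios were -1.14 for Itga4, -1.03 for Itga5 and -1.76 for Itgb3. With a pseudocount of 5 FPKM only Itgb3, at -1.21, was still lower by that much. With 1 FPKM, the ratios of the other 6 ran from -0.44 for Itgb2 to 0.41 for Itgb1. Depth in reads is unknown for this pair, so a counting interval cannot be given.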

How the data were processed

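The sources were 2 tables. For the numbered libraries the authors deposited, per the file headers, abundance per group, a log2 ratio of dKO over control, and a raw and an adjusted p-value per gene. The deposited abundance is a signal that the authors averaged over the libraries of a group. It is raw counts per the file headers, but the values are fractional and split into whole reads divided by a size factor, so they are called scaled counts. Per the submitters' processing notes, RSEM and DESeq were used on build mm10 (GRCm38), without versions. For the pair the authors deposited FPKM of 1 library each, per the file headers, made with TopHat 1.4.0 and Cuffdiff (given as 0.0.6) on build mm9, per the submitters' processing notes. No coordinates of that build are given, and the tables were not pooled.

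Computed here (Python 3.11.15, numpy 2.4.6, pandas 2.3.3, statsmodels 0.14.6) were levels per kilobase of the deposited exon length, shares, counts over fixed lists, FPKM summed over RefSeq entries of a gene (97.5% of 27901 entries matched a symbol), and reads per library. In control, all 19901 genes with a mean above 0 and up to 400 split into exactly 1 pair of whole reads, within 4 deposited decimals. In dKO, 99.5% of 14143 genes up to 10 split into 1 set. This recovery of reads was tested on simulated data. Scaled counts summed to 3.99e+07 in dKO and 3.90e+07 in control. The genes named are the 9 chains, Id2 and Id3, up to 5 per list with the smallest adjusted p, and partner chains. One gene that this rule names is not reported here. Other genes, among them the markers, Icam1, Icam2, Vcam1, Fn1, Tln1, Fermt3, Kdm5d and Uty, were chosen after their values were seen. Members and lists were chosen with earlier results of these data known. A test on library counts had been planned, but the table holds group means, so the authors' test was used. Likeness of pattern to other genes was not computed, since 2 means give none.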

Additional observations from a re-analysis of the deposited data

How the results depend on the processing

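No paired analysis was possible because the replicated comparison was deposited as group means, and for the same reason the planned count models and left-out libraries could be run for none of the calls, the deeper control library with its Y-linked reads included. The count of 3 called chains stayed at 3 with adjustment over only those genes whose mean reached 10, with the Benjamini-Yekutieli adjustment, and when a log2 change of at least 0.5 was also asked for. It was 2 (Itga4 and Itga5) with the Holm adjustment. It was 1 (Itgb3) without genes that overlap another gene, because that leaves out Itga4 and Itga5 by construction. The count of chains with a lower dKO mean was 8 under each scaling and with a pseudocount of 10. Among these, Itga6, Itgal, Itgb1 and Itgb2 had log2 ratios of only -0.04 to -0.17 as deposited. The library labelled dKO was lower for 6 chains and higher for 3 in the pair. In the pair, 3 chains passed a log2 ratio of -1 with a pseudocount of 1 or 0.1 FPKM, with single entries and after centring. That count was 1 with a pseudocount of 5 FPKM, where the log2 ratio was -0.97 for Itga4 and -0.45 for Itga5. It was 2 among the 6 chains with 5 FPKM or more in at least 1 library. Itgb3 is 1 of these 2 and reached that level only in the library labelled control, so the filter says nothing about its lower value. Without 1 control library, the log2 ratio ran from -1.28 to -0.95 for Itga5, from -0.67 to -0.12 for Itga2 and from 0.07 to 2.63 for Itga1, the last on 1 to 5 reads.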
